A study of Mus musculus with 12 samples.

Results

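The 10 genes described here are the G1 cyclins Ccnd1, Ccnd2, Ccnd3 and Ccne1, the inhibitors of cyclin-dependent kinases Cdkn1a, Cdkn1b, Cdkn1c, Cdkn2c and Cdkn2d, and the retinoblastoma gene Rb1. They were chosen by name, as the G1 cyclins set against the inhibitors of quiescence and cell cycle exit, and all 10 were found among the 30154 genes of the count table. All 10 also passed the filter on low counts, which left 15890 genes for testing. RNA came from muscle stem cells (MuSCs), sorted by flow cytometry from tibialis anterior, gastrocnemius and quadriceps of C57BL/6J mice aged 2-3 months. One arm was wild type and the other a Sestrin1,2 knockout, and both were sampled before injury, called day 0, and 7 and 21 days after it. Each of the 6 groups had 2 libraries, 12 in all. The labels do not say whether 2 libraries of a group came from different mice or pools of mice, so p-values measure the spread between libraries only. They also do not name the kind of injury or the extent of the 2 gene deletions.

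In G1, D cyclins bind the kinases CDK4 and CDK6, cyclin E binds CDK2, and both complexes phosphorylate Rb, which then releases E2F factors that switch on genes of DNA replication. The Ink4 proteins, here p18 from Cdkn2c and p19 from Cdkn2d, block CDK4 and CDK6, while the Cip/Kip proteins, p21 from Cdkn1a, p27 from Cdkn1b and p57 from Cdkn1c, bind complexes of cyclins and kinases. Muscle stem cells rest outside the cell cycle in uninjured muscle, divide after injury, and then either fuse into fibres, for which p21, p57 and Rb are known as parts of cell cycle exit, or return to rest. Sestrins are proteins induced by stress that restrain mTORC1 signalling, and mTORC1 is known to promote growth and the exit of muscle stem cells from deep rest.

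Total estimated counts were 28396862 to 38950614 per library. Sesn2 was 44.85 to 84.35 CPM (counts relative to scaled library size) in the wild-type libraries of days 0 and 7 and 1.916 to 7.034 CPM in the knockout libraries. At day 21 it went against 2 labels: the pair labelled knockout had 9.862 (replicate 1) and 108.1 CPM (replicate 2), and the pair labelled wild type had 8.919 and 82.11 CPM. Sesn1 was 67.86 to 83.96 CPM in the wild-type and 22.44 to 46 CPM in the knockout libraries of days 0 and 7, so its RNA was reduced less than that of Sesn2. At day 21 it was 41.66 and 67.16 CPM in the knockout-labelled and 43.74 and 78.33 CPM in the wild-type-labelled replicates 1 and 2, split by replicate as Sesn2 was. Genotype values of day 21 are therefore given by library, as labelled. All 10 MuSC markers were detected, among them Pax7 at 3.14 to 19.2 and Chodl at 244 to 684 TPM (transcripts relative to all transcripts, per length). Markers of other cells were present as well. Of 10 fibro-adipogenic genes, Dcn reached 2390 to 8070 TPM but Pdgfra only 3.45 to 21.3 TPM, and of 11 immune genes found by symbol, Lyz2 reached 320 to 3510 TPM while the leukocyte marker Ptprc stayed at 3.48 TPM or less. The myelin gene Mbp was at 134 to 1320 TPM. In bulk RNA, fewer cells of a type and less RNA per cell cannot be told apart.

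Sequence before the start of the genes was available from RefSeq (GRCm38.p6) for 6 of the 10 members, in 9 windows of 250 bases. Of the members that differed between the genotypes at day 0, Ccne1, Cdkn1a and Cdkn1b are shown, for Cdkn1a at the upstream of its starts, without the bases that GENCODE places inside the gene. They lie at chr7:38107535-38107740 on the minus strand, chr17:29090729-29090975 on the plus strand and chr6:134920151-134920400 on the plus strand. Capitals mark GC boxes (GGGCGG, either strand), CCAAT boxes (these letters, either strand) and, in Cdkn1a, the repeated letters of ACATGTNNNNACATGT, written 5′ to 3′ on the strand of the gene.
Ccne1: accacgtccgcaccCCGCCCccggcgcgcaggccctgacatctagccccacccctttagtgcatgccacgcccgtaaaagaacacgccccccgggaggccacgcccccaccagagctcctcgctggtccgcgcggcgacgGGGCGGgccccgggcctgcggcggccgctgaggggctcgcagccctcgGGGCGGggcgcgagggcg
Cdkn1a: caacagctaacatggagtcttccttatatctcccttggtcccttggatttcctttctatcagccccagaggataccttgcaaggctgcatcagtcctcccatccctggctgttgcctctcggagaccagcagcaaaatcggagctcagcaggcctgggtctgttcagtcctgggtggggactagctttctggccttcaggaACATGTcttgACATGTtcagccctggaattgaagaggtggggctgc
Cdkn1b: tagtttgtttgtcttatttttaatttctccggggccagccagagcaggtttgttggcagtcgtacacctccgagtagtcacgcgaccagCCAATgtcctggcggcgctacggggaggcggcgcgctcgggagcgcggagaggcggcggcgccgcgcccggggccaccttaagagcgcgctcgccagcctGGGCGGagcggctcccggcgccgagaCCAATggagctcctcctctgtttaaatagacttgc

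The shown stretch of Ccne1, the cyclin E1 gene, held 3 GC boxes, that of Cdkn1b held 1 GC box and 2 CCAAT boxes, and that of Cdkn1a held neither. The window before the downstream start of Cdkn1a, which is not shown, held 2 GC boxes. That of Cdkn2d, which also differed at day 0 and is not shown, held 3 GC boxes and 1 CCAAT box. GC boxes were in 32.7% and CCAAT boxes in 33.8% of 32851 promoter windows of 250 bases, both strands searched; the shown stretches have 206, 247 and 250 bases, and the whole window of Ccne1 held 4 GC boxes. Cdkn1a alone held ACATGTNNNNACATGT, beginning 49 bases before its upstream start. These letters, which were searched for after the sequence had been seen, were in 4 of the 32851 windows, 0.0122%; repeats of this form are known to be bound by p53, an activator of Cdkn1a. The E2F letters TTTCGCGC, TTTGGCGC, TTTCCCGC and TTTGCCGC were in none of the 9 windows and in 1.86% of all windows. These matches describe the letters only; binding was not measured.

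Cdkn1a was the most abundant of the 10 genes in 10 of the 12 libraries. On the TPM scale, which is per length and so allows genes to be compared, it lay between 737.4 and 2135 TPM, and its mean was at percentile 99.6 of all genes tested. Cdkn1c had 98.18 to 1207 TPM and was above Cdkn1a in both wild-type libraries of day 7. Ccnd3, the D cyclin known for its role in muscle differentiation, had 157.3 to 315.1 TPM. It was below Cdkn1c in the 4 libraries of day 7 but above it in 5 of the 8 libraries of days 0 and 21. The other 7 genes had means of 8.17 to 43.54 TPM, the lowest being Cdkn1b, whose product p27 is known to be regulated largely through protein stability. With the 6 groups ordered by mean TPM, Cdkn1a ran from knockout and wild type at day 0 over knockout- and wild-type-labelled libraries of day 21 to knockout and wild type at day 7, and at each of the 5 steps the libraries of neighbouring groups did not overlap. Of these 5 steps only 1 was free of overlap for Ccnd1 and for Cdkn2d, and 2 or 3 for the other 7 genes.

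**Figure D1:**
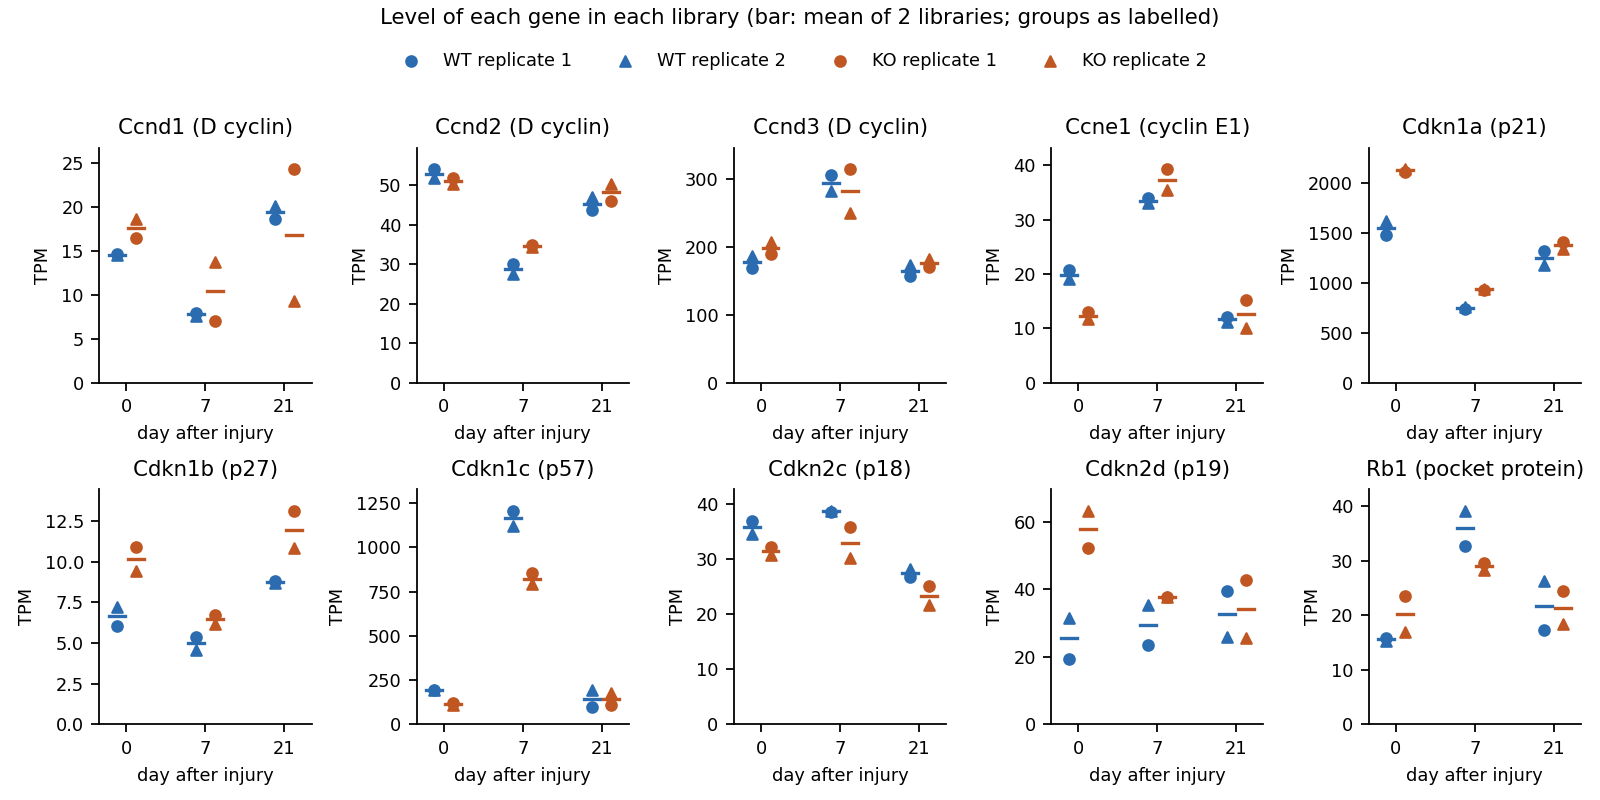
Level in TPM (linear axes from 0, one per gene) of the 10 genes in each of the 12 libraries, by day after injury; blue is wild type and orange knockout as labelled, circles are replicate 1, triangles replicate 2, and bars the mean of 2 libraries. Cdkn1c and Ccnd3 peak at day 7, where Cdkn1a and Ccnd2 are lowest.

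Ccnd3 made up 70.9% to 75.4% of the summed D cyclin TPM in the 8 libraries of days 0 and 21, and 83.9% to 89% in the 4 libraries of day 7. The share of Ccnd2 moved the other way, from 18.2% to 22.7% on days 0 and 21 to 8.64% to 11.5% at day 7. Among the Cip/Kip genes the balance of Cdkn1a and Cdkn1c turned over. Cdkn1a held 85.4% to 94.7% of their summed TPM on days 0 and 21, but only 37.8% and 40.3% of it at day 7 in wild type, where knockout had 51.9% and 54.1%. Wild-type libraries of day 0 had a ratio of Cdkn1a to Cdkn1c TPM of 7.53 and 8.26, and knockout libraries one of 17.8 and 19.2. By day 7 the ratio was down to 0.611 and 0.677 against 1.09 and 1.19, so that the knockout libraries had the higher ratio on both days, without overlap. The summed Cip/Kip TPM moved far less, from 1380 to 2255 TPM over all libraries.

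**Figure D2:**
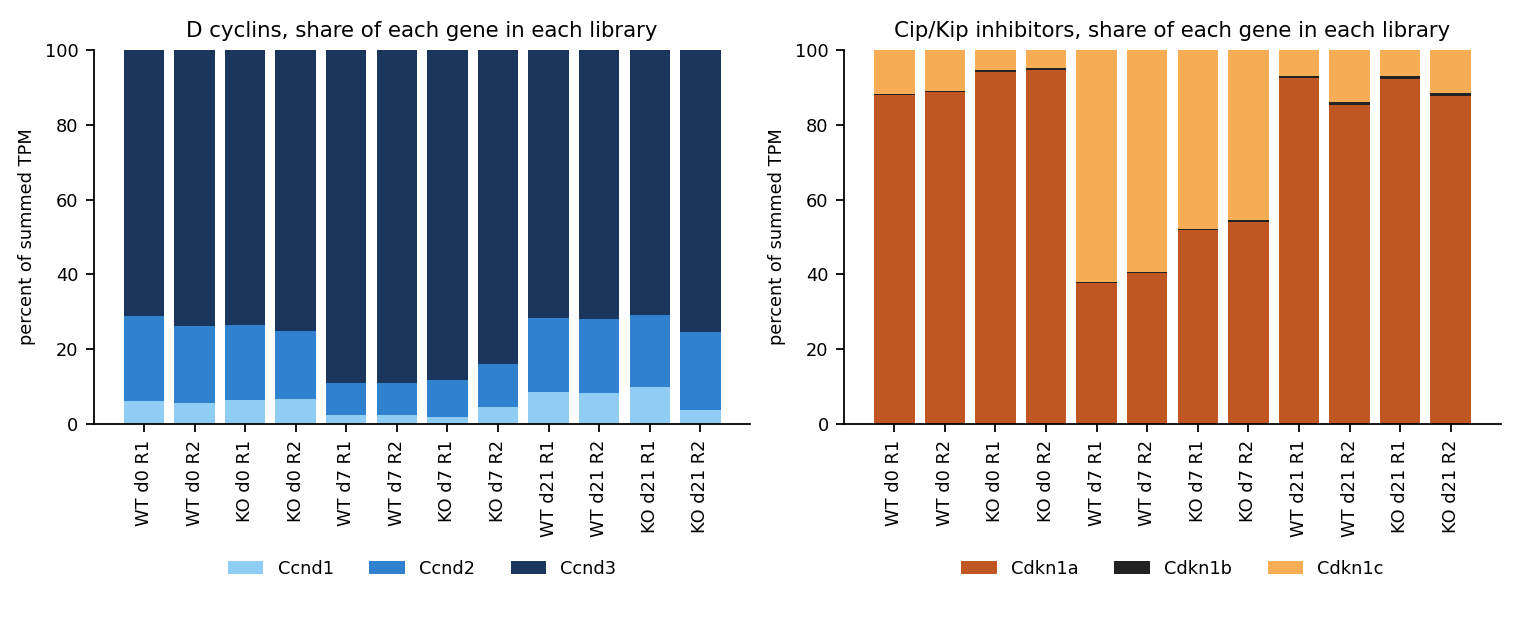
Share in percent of summed TPM held by each D cyclin (left) and each Cip/Kip inhibitor (right) in each of the 12 libraries, ordered by day, with genotypes as labelled (WT wild type, KO knockout, R replicate). Ccnd3 exceeds 83% of D cyclin TPM only at day 7, where Cdkn1c holds 45.6% to 61.9% of Cip/Kip TPM.

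Between day 0 and day 7, when muscle stem cells divide and begin to differentiate, cyclins and inhibitors each moved in both directions. In wild type, Ccnd3, Ccne1, Cdkn1c and Rb1 rose and Ccnd2, Cdkn1a and Cdkn1b fell, 7 of 10 genes called at an adjusted p under 0.05, beside 47% of all genes tested. The knockout called the same 7 genes in the same directions, beside 46.9% of all genes. In CPM the days were fully separated for 9 of the 10 genes in wild type, where this held for 79.6% of all genes, and for 10 of 10 in knockout, where it held for 76.1%. The median absolute log2 change of the 10 genes was 0.76 in wild type and 0.74 in knockout, against 0.59 and 0.62 over all genes.

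Among the D cyclins, Ccnd3 stood at 169.6 and 187.1 TPM in wild type at day 0 and at 306.9 and 282.9 TPM at day 7. In knockout it stood at 189.7 and 207.5, then 315.1 and 250.6 TPM. Every day 7 library was above every day 0 library. Its log2 fold change from counts was 0.54 ± 0.11 (SE; adjusted p = 0.00202) in wild type and 0.45 ± 0.11 (adjusted p = 0.00515) in knockout. Ccnd2, the cyclin D2 gene, went the other way. It was 54.13 and 51.86 TPM in wild type at day 0 and 30.01 and 27.47 TPM at day 7, and in knockout 51.99 and 50.29, then 34.92 and 34.49 TPM. The fall left the knockout libraries of day 7 above the wild-type ones, and amounted to -1.11 ± 0.08 on the log2 scale in wild type (adjusted p = 4.49e-06) and -0.69 ± 0.08 in knockout (adjusted p = 6.37e-05). Ccnd1, the cyclin D1 gene, was 14.59 and 14.53 TPM in wild type at day 0 and 7.969 and 7.563 TPM at day 7. In knockout it was 16.47 and 18.67, then 7.07 and 13.7 TPM. All day 7 libraries were lower, but the log2 values of -0.94 ± 0.38 and -0.90 ± 0.38 missed the threshold (adjusted p = 0.0689 and 0.0787). In CPM, on which the test rests, the knockout pair of day 7 was close, at 18.35 and 20.82, while the knockout-labelled pair of day 21, which shares the estimate of the spread, had 54.26 and 18.94. When day 21 was left out of the fit both values passed, with adjusted p = 0.000107 and 0.000135, and so they did without either 1 of that pair, with adjusted p = 0.000438 to 0.000498.

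Ccne1, which acts with CDK2 at the entry into S phase, was 20.76 and 19.03 TPM in wild type at day 0 and 33.89 and 33.12 TPM at day 7. In knockout it began lower, at 12.94 and 11.64 TPM, and reached 39.29 and 35.44 TPM. In neither genotype did the levels of the 2 days overlap. The log2 change was 0.58 ± 0.18 in wild type (adjusted p = 0.0243), and 1.49 ± 0.19 in knockout (adjusted p = 0.000106). The wild-type call was lost without any 1 of its 4 libraries, with adjusted p = 0.0708 to 0.133 and a log2 change of 0.53 to 0.61.

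Of the Cip/Kip inhibitors, Cdkn1c changed most. Its level was 195.8 and 195.3 TPM in wild type at day 0 and 1207 and 1120 TPM at day 7, and in knockout 118.4 and 111 TPM, then 853.2 and 792.6 TPM. The knockout libraries were below the wild-type ones on both days. The log2 changes were 2.34 ± 0.26 in wild type (5.08-fold; adjusted p = 8.55e-05) and 2.71 ± 0.26 in knockout (6.57-fold; adjusted p = 3.22e-05). Cdkn1a fell from 1474 and 1613 to 737.4 and 758.4 TPM in wild type, and from 2109 and 2135 to 926.3 and 940.1 TPM in knockout. The log2 changes were -1.13 ± 0.10 (adjusted p = 1.49e-05) and -1.16 ± 0.10 (adjusted p = 9.4e-06), with no overlap between days. Cdkn1b was 6.05 and 7.235 TPM at day 0 and 5.398 and 4.58 TPM at day 7 in wild type, and 10.91 and 9.428, then 6.75 and 6.18 TPM in knockout. It also fell, by 0.58 ± 0.15 on the log2 scale in wild type (adjusted p = 0.0104) and by 0.72 ± 0.15 in knockout (adjusted p = 0.00273); the wild-type call was lost without wild-type replicate 2 of day 0 or of day 7, with adjusted p = 0.0681 and 0.0734, and in limma on log2 TPM, where the change was -0.41 to -0.35 with adjusted p = 0.0837 to 0.11.

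Neither Ink4 gene was called between day 0 and day 7. Cdkn2c had 37 and 34.62 TPM at day 0 and 38.66 and 38.83 TPM at day 7 in wild type, and 32.3 and 30.81, then 35.83 and 30.21 TPM in knockout. Its wild-type change was called without either knockout-labelled library of day 21, at 0.32 (adjusted p = 0.0243 and 0.025). Cdkn2d had 19.45 and 31.49, then 23.56 and 35.28 TPM in wild type, so that the 2 days overlapped, and 52.26 and 63.21, then 37.56 and 37.54 TPM in knockout, with both day 7 libraries lower (log2 change -0.75 ± 0.35; adjusted p = 0.109, and 0.0359 when day 21 was left out of the fit). Rb1, whose protein holds E2F factors in check, was 15.75 and 15.36 TPM at day 0 and 32.64 and 39.14 TPM at day 7 in wild type. In knockout it was 23.49 and 16.91, then 29.65 and 28.22 TPM. All day 7 libraries were above all day 0 libraries, with log2 changes from counts of 1.73 ± 0.20 in wild type (adjusted p = 7.21e-05; 0.99 with an offset for gene length and 0.85 from the rlog values, at adjusted p = 0.0043 and 0.00736) and 0.57 ± 0.19 in knockout (adjusted p = 0.034). The knockout call did not hold without a library of its own at day 0 or day 7, at adjusted p = 0.0587 to 0.213, nor with the length offset, at adjusted p = 0.167, nor in limma on log2 TPM, at adjusted p = 0.0725 to 0.126.

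**Figure D3:**
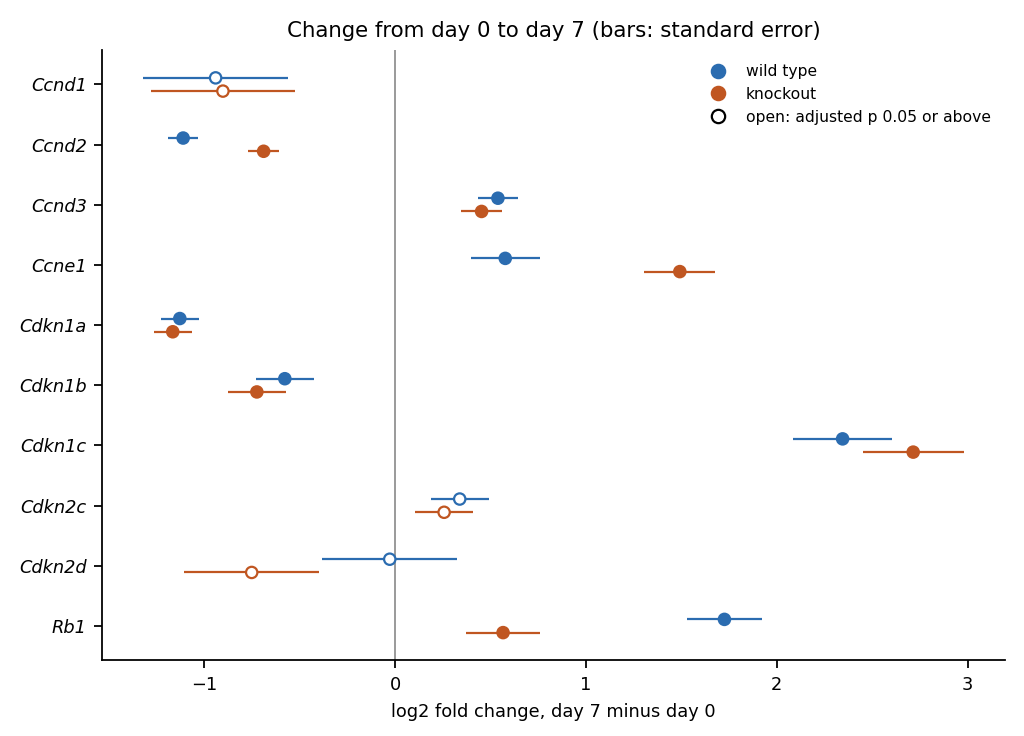
Log2 fold change from day 0 to day 7 in wild type (blue) and knockout (orange) for the 10 genes, from estimated counts; bars are standard errors, filled points have an adjusted p under 0.05 and open points do not. Cdkn1c shows the largest rise in both genotypes, 2.34 and 2.71, and the points of Rb1, Ccne1 and Ccnd2 stand apart between the genotypes.

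The genotypes' changes from day 0 to day 7 were compared directly by an interaction term, which was called for 3 of the 10 genes, beside 13.5% of all genes. Ccne1 rose more in knockout, by 0.91 ± 0.26 on the log2 scale (adjusted p = 0.0428). Ccnd2 fell less in knockout, the difference being 0.42 ± 0.11 (adjusted p = 0.0352). Rb1 rose less in knockout, with a difference of -1.16 ± 0.27 (adjusted p = 0.0234). None of the 3 calls held without any 1 of the 8 libraries of days 0 and 7, where the differences were 0.84 to 0.98 for Ccne1, 0.34 to 0.5 for Ccnd2 and -1.29 to -1.04 for Rb1. With the offset for gene length they were 0.94 (adjusted p = 0.0611), 0.41 (adjusted p = 0.0583) and -0.6 (adjusted p = 0.246). The estimated transcript length of Rb1, relative to its mean over libraries, was 0.658 and 0.78 in wild type at day 0 and 0.934 to 1.22 in the knockout libraries of day 0 and all libraries of day 7, so its count and TPM values differ in size.

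From day 7 to day 21, averaged over both genotypes, 9 of the 10 genes changed, beside 56.8% of all genes, and the days were separated in CPM for 8 of 10, beside 46.4% of all genes. All 9 genes were called under each of the 23 alternatives run. Ccnd1, Ccnd2, Cdkn1a and Cdkn1b rose and Ccnd3, Ccne1, Cdkn1c, Cdkn2c and Rb1 fell. Cdkn1c was at 98.18, 192.3, 106.9 and 176.8 TPM in the 4 libraries of day 21, all below the lowest of day 7, and fell by 2.71 ± 0.19 on the log2 scale (adjusted p = 2.76e-06). Ccne1 was at 12.05, 11.22, 15.15 and 10.11 TPM and fell by 1.48 ± 0.13 (adjusted p = 7.56e-06), again with no overlap. Ccnd3 returned to 157.3, 173.3, 171.3 and 182.8 TPM. Its fall was 0.74 ± 0.07 (adjusted p = 1.7e-05). Cdkn2c, at 21.65 to 28.28 TPM at day 21, fell by 0.63 ± 0.11 (adjusted p = 0.000578), and Rb1, at 17.36 to 26.17 TPM, fell by 0.72 ± 0.14 (adjusted p = 0.00109).

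The genes that rose back were the ones lowest at day 7. Cdkn1a reached 1312, 1179, 1411 and 1337 TPM at day 21, between the levels of days 7 and 0, a rise of 0.60 ± 0.07 on the log2 scale from day 7 (adjusted p = 4.32e-05). Cdkn1b reached 8.842, 8.705, 13.14 and 10.82 TPM, all above day 7, and rose by 0.98 ± 0.11 (adjusted p = 2.72e-05). Ccnd2, at 43.7, 47.08, 46.07 and 50.47 TPM, rose by 0.64 ± 0.06 (adjusted p = 7.3e-06) without overlap. Ccnd1, at 18.63, 20.15, 24.29 and 9.272 TPM, rose by 1.03 ± 0.27 (adjusted p = 0.00901), but 1 knockout-labelled library of day 21 was below a knockout library of day 7. The change was 0.58 to 1.42 over the alternatives; it was the only rise in which the days overlapped.

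Day 21 still differed from day 0. Averaged over the genotypes, 7 of the 10 genes passed the test, beside 45.9% of all genes; 2 were higher, beside 25%, and 5 lower, beside 20.8%. Cdkn1a was lower by 0.54 ± 0.07 on the log2 scale (log2 change -0.54; adjusted p = 0.000176), and Ccnd2 by 0.26 ± 0.06 (log2 change -0.26; adjusted p = 0.00355). Cdkn1a alone was called under all 23 alternatives. Ccne1 (-0.45 ± 0.13), Cdkn2c (-0.33 ± 0.11) and Ccnd3 (-0.24 ± 0.07) were lower, and Rb1 (0.42 ± 0.14) and Cdkn1b (0.33 ± 0.11) higher, with adjusted p = 0.0183 to 0.0292. Both of the higher calls were lost with the gene length offset, at 0.17 for Rb1 (adjusted p = 0.399) and 0.21 for Cdkn1b (adjusted p = 0.211), and from the rlog values, at 0.16 (adjusted p = 0.421) and 0.15 (adjusted p = 0.251). They were also lost in limma on log2 TPM, as were those of Ccnd2 and Ccnd3, at -0.15 and -0.14 (adjusted p = 0.103 to 0.294 for these 2). The CPM of day 0 and day 21 did not overlap for 4 of the 10 genes, Ccnd2, Ccnd3, Cdkn1a and Cdkn2c, against 30.6% of all genes. In TPM the days were separated for 2 of the 10 genes. Without any 1 library of day 0, part of the 7 calls was lost, in some fits the larger part, and fewer of all genes passed as well. The call of Cdkn2c was lost each time, at -0.34 to -0.32. Without knockout replicate 2 of day 0, Rb1 stood at 0.37 and Cdkn1b at 0.29, and both calls were lost.

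Before injury several inhibitors had more RNA in the Sestrin1,2 knockout than in wild type, and Ccne1 and Cdkn1c less. In knockout, Cdkn1a, Cdkn1b, Cdkn2d and Rb1 were higher and Ccne1 and Cdkn1c lower, 6 of 10 genes called, beside 27.4% of all genes. The called genes were 4 higher, beside 14.8% of all genes, and 2 lower, beside 12.6%. CPM of wild type and knockout were separated for 10 of 10 genes, as for 75.1% of all genes. The D cyclins were not called, at log2 differences of 0.18 ± 0.37 for Ccnd1, -0.11 ± 0.08 for Ccnd2 and 0.07 ± 0.11 for Ccnd3, nor was Cdkn2c (-0.14 ± 0.15).

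Cdkn2d differed most, with 52.26 and 63.21 TPM in knockout and 19.45 and 31.49 TPM in wild type, a log2 difference of 1.12 ± 0.36 (adjusted p = 0.043). The lowest knockout library was well above the highest wild-type one, though the wild-type pair was spread. Rb1 was higher by 0.80 ± 0.20 from counts (adjusted p = 0.0138), where its TPM were 23.49 and 16.91 against 15.75 and 15.36. With the gene length offset its log2 difference was 0.33 (adjusted p = 0.306). Cdkn1b, at 10.91 and 9.428 against 6.05 and 7.235 TPM, was higher by 0.60 ± 0.15 (adjusted p = 0.0154). Cdkn1a, at 2109 and 2135 against 1474 and 1613 TPM, was higher by 0.36 ± 0.10 (adjusted p = 0.0243), a small difference at a high level. Cdkn1c went against the other Cip/Kip genes, at 118.4 and 111 against 195.8 and 195.3 TPM, a difference of -0.82 ± 0.25 (adjusted p = 0.0367). Ccne1, at 12.94 and 11.64 against 20.76 and 19.03 TPM, differed by -0.72 ± 0.19 (adjusted p = 0.0176).

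The directions of these 6 differences held in all 23 alternatives, while the calls did not: Cdkn1c was called in 11 of them, Cdkn2d in 15, Rb1 in 16, Ccne1 and Cdkn1a in 19 and Cdkn1b in 20. Without any 1 library of day 0, most or all of the 6 calls were lost, and fewer of all genes passed as well. The log2 differences were then 0.82 to 1.53 for Cdkn2d, 0.68 to 0.93 for Rb1 and 0.51 to 0.7 for Cdkn1b. They were 0.31 to 0.42 for Cdkn1a, -0.85 to -0.78 for Cdkn1c and -0.75 to -0.67 for Ccne1. Other lists moved between the same libraries. Of 10 MuSC markers 7 were lower in knockout and none higher, and the red blood cell genes summed to 782.1 and 742.5 TPM in knockout against 3122 and 3129 TPM in wild type. Of 10 immune genes tested 7 had negative log2 differences, with a list median of -1.06 beside 0.002 over all genes, while Lyz2 was at 0.71 ± 0.25; its adjusted p = 0.0612 was the smallest of the list and missed the threshold. Of 8 genes of myogenic differentiation 2 were called, both lower (list median -0.92), and Myog averaged 33.4 TPM in knockout against 85.9 TPM in wild type (adjusted p = 0.0774). Of 10 genes of dissociation stress 3 were higher and 1 lower (list median 0.05), Jun averaging 947 against 645 TPM (adjusted p = 0.0104). Of the fibro-adipogenic genes 3 of 10 were lower, among them Col1a1 with 521 against 1470 TPM, and of the myofibre genes 3 of 8, while 2 of 8 mural and Schwann cell genes and 1 of 8 endothelial genes were higher. The part of other cells, of differentiation and of handling in the 6 differences was not tested.

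**Figure D4:**
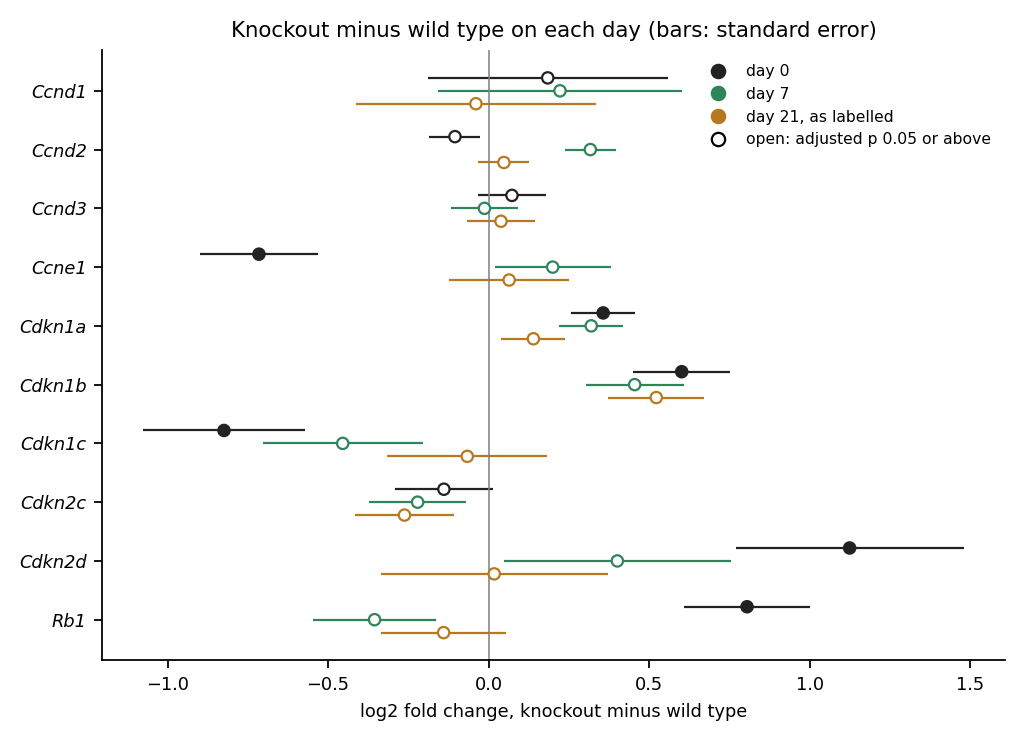
Log2 fold change, knockout minus wild type, on day 0 (black), day 7 (green) and day 21 (ochre, groups as labelled) for the 10 genes; bars are standard errors and filled points have an adjusted p under 0.05. Filled points occur at day 0 only, for Ccne1, Cdkn1a, Cdkn1b, Cdkn1c, Cdkn2d and Rb1.

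At day 7 edgeR called 0 of the 10 genes between the genotypes, beside 1.76% of all genes, and 3 had an unadjusted p under 0.05. Those 3 were higher in knockout: Ccnd2 by 0.32 ± 0.08 on the log2 scale (adjusted p = 0.0822), Cdkn1a by 0.32 ± 0.10 (adjusted p = 0.164) and Cdkn1b by 0.45 ± 0.15 (adjusted p = 0.197). Cdkn1c stood at -0.45 ± 0.25 (adjusted p = 0.47). The genotypes did not overlap in CPM for 9 of 10 genes, all but Ccnd3, where 47.4% of all genes did not. The DESeq2 Wald test and the authors' batch-corrected values each called Ccnd2 and Cdkn1a, with adjusted p = 0.00144 and 0.0335 in the first and 0.0235 and 0.0147 in the second. A fit without day 21 called both and also Cdkn1c (adjusted p = 0.00286). Over all genes these 3 fits called 795 of 15890, 825 of 21782 and 1169 of 15672, against 280 of 15890 in edgeR with day 21. Ccne1, lower in knockout at day 0, was at 0.20 ± 0.18 here (adjusted p = 0.705).

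At day 21 the groups as labelled showed no call among the 10 genes, beside 0.0126% of all genes, which is 2 genes; 1 member, Cdkn1b, had an unadjusted p under 0.05, as had 2259 of all genes. The DESeq2 Wald test called none of the 10 genes and 475 of all genes. The groups were separated in CPM for 4 of 10 genes, beside 38% of all genes. In TPM, replicate 2 lay on the same side of replicate 1 in both groups for 7 of the 10 genes, all but Ccnd1, Cdkn2c and Rb1. The share of all genes that did so was not counted. Over all genes, the deviations of replicate 1 from its group mean correlated at 0.07 between the 2 groups. Cdkn1c was 98.18 and 106.9 TPM in the replicates numbered 1, where Sesn2 was low, and 192.3 and 176.8 TPM in those numbered 2, where Sesn2 was high. Cdkn2d was 39.56 and 42.77 TPM in the former and 25.87 and 25.52 TPM in the latter. The gap was smaller for Ccne1, at 15.15 and 10.11 TPM in the knockout-labelled and 12.05 and 11.22 TPM in the wild-type-labelled pair. Cdkn1b was separated by the labels, with 13.14 and 10.82 TPM in knockout-labelled and 8.842 and 8.705 TPM in wild-type-labelled libraries. Ccnd1 went from 24.29 in replicate 1 to 9.272 TPM in replicate 2 of the knockout-labelled pair but from 18.63 to 20.15 TPM in the wild-type-labelled pair, and Rb1 from 24.39 to 18.31 against 17.36 to 26.17 TPM.

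Without the 2 libraries whose Sesn2 went against the label, 1 library remained on each side, assumed to vary as the other groups do. Cdkn1a (0.34; adjusted p = 0.0354) and Cdkn1b (0.73; adjusted p = 0.0383) were then higher and Cdkn1c lower (-0.76; adjusted p = 0.0022) in the remaining knockout-labelled library, with 1200 of all genes called. Leaving out those libraries uses the Sesn2 level itself, so these values describe 2 libraries. Ccnd1 was called in a single alternative, without knockout-labelled replicate 1 of day 21 (-1; adjusted p = 0.0342).

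**Figure D5:**
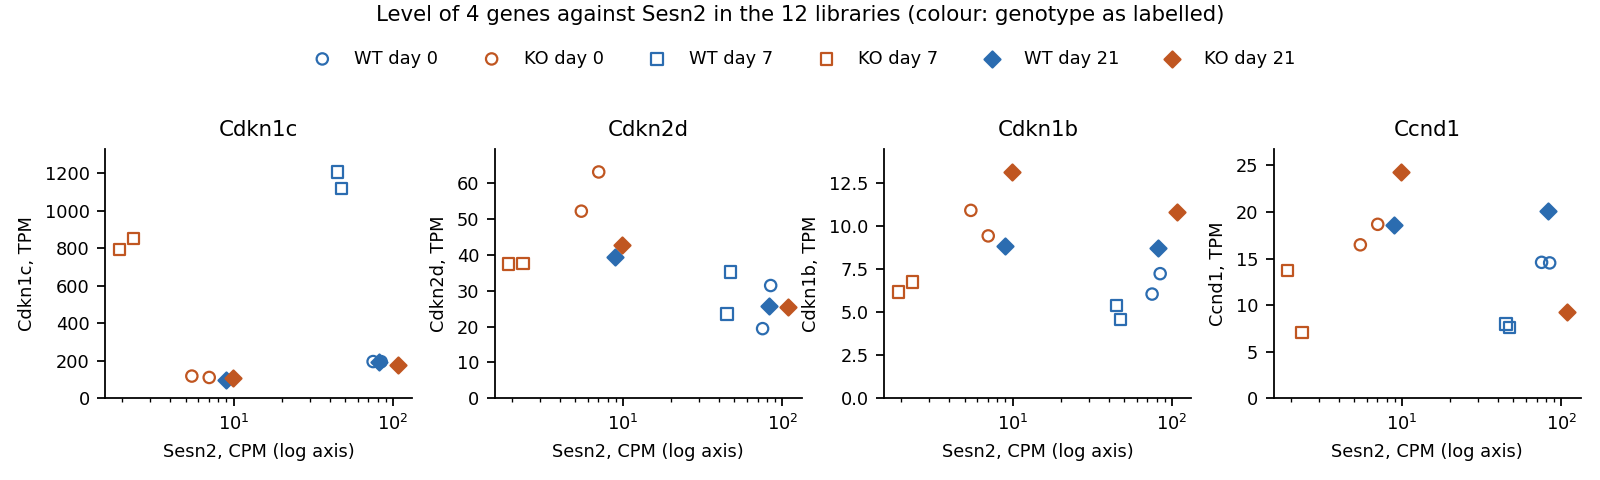
TPM of Cdkn1c, Cdkn2d, Cdkn1b and Ccnd1 (linear axes from 0) against Sesn2 in CPM (log axis) in the 12 libraries; colours give the genotype as labelled, open circles day 0, open squares day 7 and filled diamonds day 21. At day 21, 1 library of each label lies near 9 CPM of Sesn2 and the other above 80 CPM, and Cdkn1c is higher and Cdkn2d lower in those above 80 CPM.

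The rest of the cell cycle list moved mostly in 1 direction with the injury. Of 18 genes of G2 and mitosis, all 18 rose from day 0 to day 7 in both genotypes, with medians of 2.68 in wild type and 4.92 in knockout on the log2 scale, and all 18 fell by day 21, with a median of -3.56. Over all genes these medians were 0.06, 0.03 and 0.01. Nusap1, a spindle protein, rose by 2.39 ± 0.19 in wild type and 4.68 ± 0.22 in knockout. Of 22 E2F factors and targets, 20 rose in wild type and 18 in knockout and none fell, among them the replication licensing gene Mcm3 (2.87 ± 0.12 and 2.83 ± 0.12). Of 13 tested kinases and activators of G1 and S phase, 11 rose in each genotype. Cdk2 rose by 1.28 ± 0.11 in wild type and 1.47 ± 0.11 in knockout.

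The other brakes moved both ways: of 14 genes, 4 rose and 3 fell in wild type, where 47% of all genes were called, and 5 rose and 4 fell in knockout, where 46.9% were. The pocket protein gene Rbl1 rose by 2.17 ± 0.18 and 1.35 ± 0.18, and the antiproliferative gene Tob1 fell by 1.33 ± 0.12 in wild type. At day 0, where 27.4% of all genes were called, 13 of 18 genes of G2 and mitosis were lower in knockout and none higher (median -1.58, all genes 0.00), 5 of 22 E2F factors and targets were lower and 1 higher, and 6 of 13 kinases and activators were lower and 1 higher. The 14 other brakes were split, with 4 higher and 4 lower. Tk1, an enzyme of thymidine salvage, differed by -1.80 ± 0.17 and Cdk4, the partner of D cyclins, by -0.58 ± 0.12. Of 12 upstream regulators 2 were higher, Notch1 and Jun, and 2 lower, Trp53 and the Notch target Hey1. Trp53, the gene of p53, was lower by 0.68 ± 0.15 in knockout (log2 difference -0.68; adjusted p = 0.00896), and Notch1 was higher by 0.63 ± 0.14 (adjusted p = 0.00834). At day 7 and at day 21 none of the genes in these 5 lists was called between the genotypes.

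Over the 12 libraries, the genes whose log2 CPM followed Cdkn1c most closely among 14543 named genes were Tmem8c, an older symbol of the fusion gene myomaker (Pearson r = 0.989), the differentiation factor Myog (0.988) and cardiac actin Actc1 (0.988). Among those of Cdkn1a were Sod3 (0.995) and Lyz1 (0.993), and among those of Ccnd2 were Apod (0.987) and Tmub1 (0.985). All of these points share the same libraries and mainly the contrast of day 7 with the other days, so the values describe likeness only. Ccne1 was most like Psmd7 (0.979), Lap3 (0.978) and Coprs (0.974), Ccnd3 like Eif2b5 (0.974), Prpf31 (0.966) and Map2k2 (0.965), and Rb1 like Cog8 (0.972), Agk (0.967) and Leo1 (0.964). Cdkn1b was most like Mxd1 (0.968), Apbb2 (0.96) and Abtb2 (0.96), and Cdkn2c like Tmem230 (0.955), Rad17 (0.943) and Chek2 (0.941). Ccnd1 with Sirt1 (0.942), Alcam (0.914) and Cebpb (0.912), and Cdkn2d with Tnfaip8l3 (0.861), Adal (0.851) and Hsd3b7 (0.847), had weaker likenesses.

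Among the 10 genes themselves, Ccnd2 and Cdkn1a were most alike (r = 0.92), followed by Ccnd3 and Cdkn1c (0.9), while Ccnd2 and Rb1 were most opposed (-0.9). Cdkn2d followed no other member closely, its largest r being 0.54 with Cdkn1a. Markers of other cells moved over the same days. From day 0 to day 7, beside calls for 47% (wild type) and 46.9% (knockout) of all genes, 8 of 10 immune genes rose in wild type and 7 in knockout (list medians 3.74 and 2.96 on the log2 scale, all genes 0.06 and 0.03). The immune gene with the highest TPM, Lyz2, fell in both, from means of 2030 to 372 TPM and 3450 to 408 TPM. Of 8 myofibre genes 7 rose in each genotype (medians 4.92 and 5.20), and of 10 fibro-adipogenic genes 6 rose and 2 fell in each (1.17 and 2.33), the falling ones being the abundant Dcn, from 5880 to 2430 TPM in wild type, and Gsn, from 3560 to 936 TPM. The 8 genes of mural and Schwann cells summed to 1757 to 2264 TPM at day 0, 340.2 to 455.1 TPM at day 7 and 823.8 to 1174 TPM at day 21, and the 10 genes of dissociation stress to 9950 to 13560, 5095 to 6002 and 9937 to 12930 TPM. The 8 genes of myogenic differentiation found by symbol summed to 83.99 to 182, 3146 to 4421 and 195 to 492.1 TPM. The part of these cells and of handling in the changes of the 10 genes was not tested.

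The members are protein-coding genes on chromosomes 4 (Cdkn2c), 6 (Ccnd2, Cdkn1b), 7 (Ccnd1, Ccne1, Cdkn1c), 9 (Cdkn2d), 14 (Rb1) and 17 (Ccnd3, Cdkn1a) of GRCm38. Several share exonic sequence on the opposite strand with genes of the count table: Ccnd1 shares 1100 bases with Oraov1, Ccnd3 shares 361 with Bysl, and Rb1 shares 488 with Rcbtb2 and 408 with Lpar6. Whether counting used strand is not given in the sources used here, so reads from these stretches cannot be told apart. Beside Rb1, from day 0 to day 7 in wild type, Rcbtb2 rose by 0.53 and Lpar6 by 0.60, while at day 0 Lpar6 was lower in knockout (-0.90; adjusted p = 0.0167) and Rcbtb2 was not called (-0.13). Bysl was higher in knockout at day 0 (0.64; adjusted p = 0.012), where Ccnd3 was not called. The Ccnd3 pseudogene Ccnd3-ps, 96.3% identical over the aligned bases, had at most 12.6 estimated counts in a library. Estimated transcript length of Ccnd1, relative to its mean, ranged from 0.757 to 1.31, the 2 extremes being the knockout libraries of day 7.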

How the data were processed

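Bulk RNA-seq was made with the SMART-Seq v4 and Nextera XT kits and sequenced as single-end reads of 76 bases, per the labels' protocols. The authors deposited estimated counts per gene, not normalised, TPM for the same genes, and batch-corrected rlog values on the log2 scale, whose batch is not named. kallisto 0.46.1 and the builds mm10 and GRCm38.p6 stand in the submitters' processing notes. Each member had at least 359 estimated counts in each library.

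Estimated counts were rounded, filtered with filterByExpr, scaled by TMM (factors 0.915 to 1.09) and fitted as 6 group means over 12 libraries (edgeR 4.0.16, robust quasi-likelihood F test; R 4.3.3). The p-values were adjusted by Benjamini-Hochberg over all 15890 genes, and a gene was called under 0.05. CPM use the scaled library sizes, and log2 CPM a prior count of 2. Fold changes are from counts, and levels are the authors' TPM. Alternatives used DESeq2 1.42.0, limma 3.58.1 on log2(TPM + 1) or log2(TPM + 0.1) and on the rlog values, other filters and scalings, a replicate block, subsets of libraries and, chosen after seeing the data, a gene length offset. The tests were tested on simulated data. Positions and overlaps came from GENCODE M21, in which 29808 of 30154 identifiers were found, near copies from BLAST 2.17.0, promoters from RefSeq, and figures from matplotlib 3.10.9.

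The members and lists were chosen with earlier results of these data known. Named besides the members were at most 3 called genes per pathway list and comparison by smallest adjusted p, the 3 genes most correlated with each member (without unnamed gene models), the neighbours that share exons, markers from lists, and Sesn1 and Sesn2. Some genes that this rule names are not reported here. Of the lists, 8 of 10 differentiation and 11 of 12 immune genes were found by symbol.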

Additional observations from a re-analysis of the deposited data

Results flagged for a closer look

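The change from day 0 to day 7 differed between the genotypes for 3 of the 10 genes, beside 13.5% of all genes, by the interaction test of edgeR with Benjamini-Hochberg adjustment. None of the 3 calls held when any library of day 0 or day 7 was left out. The difference, knockout minus wild type on the log2 scale, was 0.42 for Ccnd2 (adjusted p = 0.0352), 0.91 for Ccne1 (adjusted p = 0.0428) and -1.16 for Rb1 (adjusted p = 0.0234). For Rb1 it was -0.6 in edgeR with the gene length offset (adjusted p = 0.246) and -0.47 in limma on the rlog values (adjusted p = 0.302). In each of the 3 genes both genotypes moved in the same direction by different amounts, and each pair of day 7 libraries lay on the same side of its day 0 pair.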

How the results depend on the processing

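No member's call changed direction under any alternative run, and the 9 calls between day 7 and day 21 stayed calls in all of them. At day 7 between the genotypes, where no member was called, DESeq2 called 2, the rlog values 2 and the fit without day 21 called 3. Calls over all genes also rose, from 280 of 15890 to 795 of 15890, 825 of 21782 and 1169 of 15672. At day 21, leaving out the 2 doubted libraries left 1 library on each side, with log2 differences of 0.34 for Cdkn1a, 0.73 for Cdkn1b and -0.76 for Cdkn1c. Between day 21 and day 0, where 7 were called, limma on log2 TPM called 3 with either pseudocount and 2 without a filter. Over all genes it called 6191 and 6169 of 13953 and 6008 of 21927, against 7289 of 15890 in edgeR. For the interaction limma on log2 TPM called 0 with pseudocount 1, 0 with pseudocount 0.1 and 0 without a filter. The gene length offset, chosen after seeing the data, called 0. Over all genes these fits called 1356, 1334, 1096 and 1449, against 2141 in edgeR without the offset. The causes were not tested. In log2 TPM the median of all genes from day 0 to day 7 in wild type was 0.244 against 0.057 from counts, and 69.7% of calls were rises against 54.9%.

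Without 1 library in turn, the members called changed in each comparison except day 7 to day 21. For the genotypes at day 0 and for the interaction, all calls of members were lost in some of these fits. The number of all genes called also changed in every comparison, so a lost call of a member can go with fewer calls over all genes. A group left with 1 library is assumed to vary like the others.

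The sign changed for values that were not called over all 12 libraries. Between the genotypes at day 21, rlog values gave 0.01 for Cdkn1c and -0.05 for Cdkn2d, and leaving out the doubted libraries gave 0.38 for Ccnd1. Without 1 library in turn the ranges were -1 to 0.53 for Ccnd1, -0.31 to 0.35 for Ccne1, -0.42 to 0.41 for Cdkn1c, -0.48 to 0.45 for Cdkn2d and -0.44 to 0.25 for Rb1, and at day 7 -0.18 to 0.14 for Ccnd3. From day 0 to day 7 in wild type, Cdkn2d was 0.21, 0.22 and 0.21 in limma on log2 TPM (pseudocounts 1 and 0.1, no filter) and -0.35 to 0.36 without 1 library, and Cdkn2c was -0.13 from rlog and -0.1 with the length offset; in knockout Cdkn2c was -0.07 and -0.06. From day 7 to day 21, Cdkn2d was -0.02 in limma on log2 TPM and on rlog values and -0.12 to 0.31 without 1 library. From day 0 to day 21, Ccnd1 was -0.11 from rlog and -0.36 to 0.4 without 1 library. For the interaction, Cdkn2c was 0.06 from rlog and 0.04 with the length offset, and without 1 library -0.18 to 0.01, Ccnd1 was -0.06 to 0.12 and Ccnd3 -0.26 to 0.06.

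Over all genes, same-numbered libraries did not deviate together (correlations of -0.14 to 0.07 over 15 pairs of groups). With 2 libraries per group this cannot show whether same-numbered libraries shared a batch, which the labels do not name. With the replicate number as a block, 5 members were called at day 0 in place of 6, Cdkn2d being lost (1.12; adjusted p = 0.0625), and 4080 of all genes in place of 4356; the members' other counts were equal to those without the block.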
